A study of Prunus sibirica with 6 samples.

Results

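The genes described here are those for ICE1 and for calmodulin-binding transcription activator 4 (CAMTA4). In Arabidopsis, ICE1 and members of the CAMTA family stand above the CBF genes of the cold response. Such a role of these apricot genes was not tested. The genes were taken by description from a table of 31889 genes. It holds 2 genes described as ICE1 (PARG24202 and PARG12701) and 1 described as CAMTA4 (PARG05795), so 3 genes in all. Levels were measured by RNA sequencing in flowers of Prunus sibirica, the Siberian apricot, picked in bloom under natural frost at -4 °C. The strong group is clone 338, which has strong frost resistance, and the weak group is clone 28, which has weak frost resistance, with 3 libraries each. With 1 clone per kind, resistance and anything else in which the clones differ cannot be told apart. All flowers had met frost, and no unfrosted flower was analysed here. The labels do not say if the libraries are separate trees, and the p-values thus reflect the spread among libraries, some or all of which may be technical.

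ICE1 is a basic helix-loop-helix factor that, in Arabidopsis, binds the promoters of CBF genes in the cold, and the CBF proteins in turn switch on genes that protect cells from freezing. The ICE1 protein is regulated after it is made. The ligase HOS1 marks it for breakdown, the ligase SIZ1 attaches SUMO to it, and kinases phosphorylate it. Together with the factors SPEECHLESS, MUTE and FAMA it also steers the making of stomata. CAMTA proteins carry the CG-1 DNA-binding domain and bind calmodulin, the calcium sensor, and in Arabidopsis members of the family activate CBF genes during cold and hold down salicylic acid immunity in warmth.

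Between 16367632 and 18866306 reads per library fell on genes. Values are FPKM as deposited, a level per gene length and library size, so that levels of genes of different length can be set side by side. Library 3 of the weak clone stood apart from its group. Pearson correlations across genes, which are not replicates, put it at 0.849 and 0.861 with weak libraries 1 and 2 and at 0.895 to 0.925 with the strong libraries, where the former pair had 0.986. The differences of the ICE1 genes and CAMTA4 are therefore given with and without it.

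PARG24202, the more abundant ICE1 gene, lies on the plus strand of linkage group 7 at 11853031 to 11856405, with a gene length of 2222 bases and an annotated helix-loop-helix DNA-binding domain. It was at 24.8, 17.5 and 23.5 FPKM in strong libraries 1, 2 and 3, and at 3.99, 5.51 and 16.1 FPKM in weak libraries 1, 2 and 3. The groups did not overlap, but weak library 3 lay close below strong library 2. The mean was 21.9 ± 3.88 FPKM in the strong clone and 8.54 ± 6.60 FPKM in the weak clone (SD, n = 3), 2.57 times as high. Whole flowers mix tissues, and in such bulk RNA fewer cells of a type and less RNA per cell cannot be told apart.

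PARG12701, the second ICE1 gene, lies on the minus strand of linkage group 4 at 226363 to 230674, with a gene length of 2339 bases and the same annotated domain. It was at 9.38, 8.09 and 9.29 FPKM in strong libraries 1, 2 and 3, and at 1.20, 0.906 and 6.31 FPKM in weak libraries 1, 2 and 3. Again all strong libraries lay above all weak libraries, and weak library 3 stood between the other weak libraries and the strong ones. The mean was 8.92 ± 0.72 FPKM in the strong clone and 2.80 ± 3.04 FPKM in the weak clone (SD, n = 3), 3.18 times as high.

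CAMTA4 (PARG05795) lies on the minus strand of linkage group 2 at 19787295 to 19793922, has a gene length of 3479 bases, and is annotated with a CG-1 domain, an IPT/TIG domain and ankyrin repeats, the layout that CAMTA proteins are known for. It was at 11.1, 9.88 and 12.4 FPKM in strong libraries 1, 2 and 3, and at 1.22, 1.96 and 5.68 FPKM in weak libraries 1, 2 and 3. The groups did not overlap, and weak library 3 was apart from the other weak libraries as well as from the strong ones. The mean was 11.1 ± 1.29 FPKM in the strong clone and 2.95 ± 2.39 FPKM in the weak clone (SD, n = 3), 3.77 times as high.

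**Figure D1:**
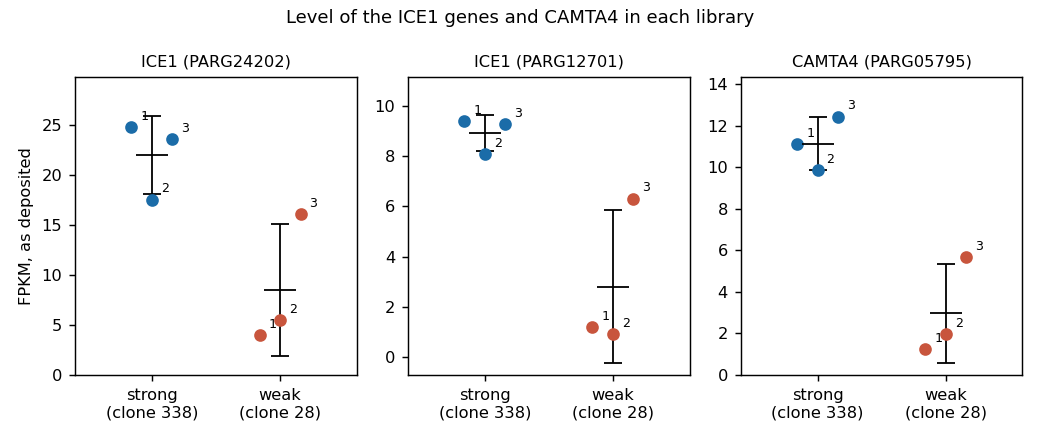
FPKM (y axis, as deposited) of the 2 ICE1 genes and CAMTA4 in the 3 libraries of each clone (points, numbered by library), with the mean and SD as bars. In each panel the 3 strong points lie above the 3 weak points, and weak library 3, at 16.1, 6.31 and 5.68 FPKM from left to right, is the highest weak point.

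The comparison of the clones was tested with limma on log2(FPKM + 1), fitted over 16462 genes. CAMTA4 was higher in the strong clone, with a log2 difference of 1.78 ± 0.42 (SE, limma adjusted p = 0.0393). Neither ICE1 gene passed the test. PARG24202 differed by 1.47 ± 0.47 (adjusted p = 0.0693), with a 95% interval of 0.35 to 2.58, and PARG12701 by 1.66 ± 0.51 (adjusted p = 0.0663), with an interval of 0.43 to 2.89. So 1 of the 3 genes was called, where 15.3% of all tested genes were called in either direction and 7.53% were called as higher in the strong clone and 7.78% as lower. With equal sums of FPKM per library CAMTA4 alone was again called (2.40, adjusted p = 0.0469), beside 14.1% of all genes, 9.52% higher and 4.54% lower. With quantile scaling it was called at 1.57 (adjusted p = 0.0242), beside 19.4% of genes, 9.05% higher and 10.3% lower. A fit with the replicate number as a block called all 3 genes, but also 39.1% of all genes, 18.2% higher and 20.9% lower. All 3 genes had libraries that did not overlap between the clones, as had 45.4% of all tested genes, 23.3% with the strong clone above. Larger positive differences than that of CAMTA4 were found for 5.72% of tested genes, and the corresponding shares were 6.73% for PARG12701 and 8.98% for PARG24202.

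Weak library 3 carried most of the spread. On the log2 scale it lay 79.5% and 80.8% of the way from the mean of weak libraries 1 and 2 to the mean of the strong libraries for PARG24202 and PARG12701, and 61.7% of the way for CAMTA4. How far along it lay was not counted for other genes. Of the 3838 tested genes whose strong libraries all lay above the weak ones, weak library 3 was the highest weak library in 3016. Without it the strong clone stood 4.62 times as high as the weak clone for PARG24202, 8.49 times for PARG12701 and 7.01 times for CAMTA4. The log2 differences were then 1.99 ± 0.21, 2.28 ± 0.16 and 2.24 ± 0.19 (SE, adjusted p = 0.000392, 0.000122 and 0.00021 by limma), so both ICE1 genes passed as well, but 73.4% of all tested genes were called in that fit, 38% as higher and 35.4% as lower. Leaving out any 1 of the other 5 libraries in turn ended the call of CAMTA4, with adjusted p values of 0.0976 to 0.158 and differences of 1.44 to 1.85.

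**Figure D2:**
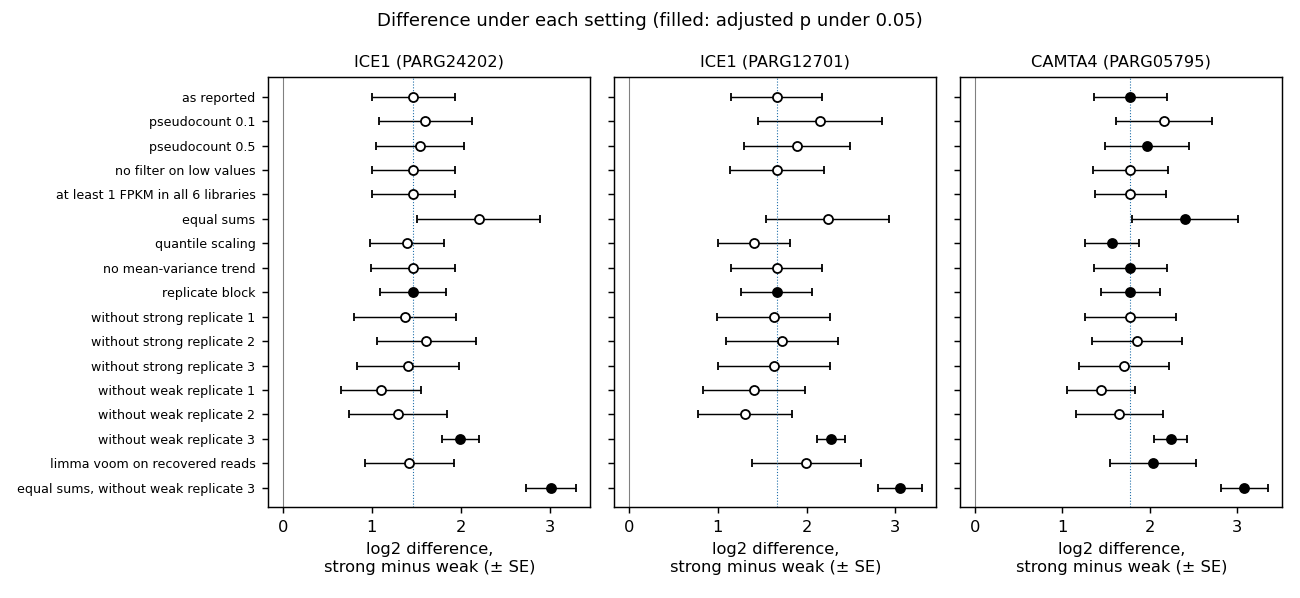
Log2 difference, strong minus weak, with its SE (x axis) for the 2 ICE1 genes and CAMTA4 under each processing setting (y axis); filled points have a limma adjusted p under 0.05 and the dotted line is the reported value. Every point lies above 0, from 1.11 to 3.01 for PARG24202, from 1.31 to 3.05 for PARG12701 and from 1.44 to 3.08 for CAMTA4, while the calls come and go with the setting.

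These values rest on the following reads. In the strong libraries PARG24202 had 757 to 1406 reads, PARG12701 had 368 to 584 and CAMTA4 had 668 to 1164. In weak libraries 1 and 2 they had 92 and 133, 29 and 23, and 44 and 74 reads in the same order, and in weak library 3 they had 744, 307 and 411. The counting error of a single value was thus up to 20.9% for PARG12701 in weak library 2 and between 2.67% and 5.71% in the strong libraries and weak library 3.

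As for their place among all genes, PARG24202 was at the 68.1 to 77.3 percentile of the tested genes in the strong libraries and at the 34.2, 39.9 and 66.0 percentile in weak libraries 1, 2 and 3. PARG12701 was at the 44.5 to 48.6 percentile in the strong libraries and at the 14.8, 10.1 and 37.3 percentile in the weak ones. CAMTA4 moved from the 50.6 to 58.1 percentile in the strong libraries to the 15.02, 20.0 and 34.5 percentile in the weak ones. These ranks do not depend on how the libraries were scaled. With the libraries rescaled to equal sums the median difference of all genes moved from 0.05 to 0.76 on the log2 scale, and relative to that median the differences were 1.44, 1.48 and 1.64 for PARG24202, PARG12701 and CAMTA4, against 1.42, 1.61 and 1.73 as deposited.

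The order of levels among the 3 genes was the same in all strong libraries, with PARG24202 highest, CAMTA4 next and PARG12701 lowest. PARG24202 stood 2.64, 2.17 and 2.53 times as high as PARG12701 in strong libraries 1, 2 and 3, and 3.34, 6.09 and 2.55 times as high in the weak libraries. The clones overlapped, and the log2 ratio did not differ between the clones beyond the spread (strong minus weak -0.61, exact permutation p = 0.2, two-sided, adjusted p = 0.3 over the 3 pairs). Relative to CAMTA4, PARG24202 stood 2.23, 1.77 and 1.89 times as high in the strong libraries, against 3.27, 2.81 and 2.83 times in the weak ones. Here the clones did not overlap, with a log2 ratio lower by 0.60 in the strong clone on average, and the exact permutation p of 0.1 is the smallest that 3 against 3 libraries allow (adjusted p = 0.3). PARG12701 and CAMTA4 were close neighbours in level. Their ratio was 0.845, 0.819 and 0.746 in the strong libraries and 0.980, 0.462 and 1.11 in the weak ones, so their order turned in weak library 3, and the exact permutation p was 1. These tests do not show that the ICE1 genes and CAMTA4 changed by the same amount.

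CAMTA4 is 1 of 4 CAMTA genes in the table, and the other members differed less between the clones. CAMTA2 (PARG28696) was at 12.7, 12.7 and 12.5 FPKM in the strong libraries and at 13.5, 11.5 and 10.8 FPKM in the weak libraries. CAMTA3 (PARG04349), the member best known in Arabidopsis for activating CBF genes and restraining immunity, was at 10.9, 10.3 and 10.6 FPKM against 8.20, 8.63 and 9.503. CAMTA5 (PARG04567), the most abundant of the 4, was at 38.2, 37.6 and 42.3 FPKM against 31.1, 32.6 and 20.3. In the strong clone CAMTA4, CAMTA3 and CAMTA2 thus had nearly equal levels per length, whereas in the weak clone CAMTA4 was the lowest of the family in every library.

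The log2 differences of these genes were 0.08 ± 0.18 for CAMTA2, 0.25 ± 0.17 for CAMTA3 and 0.50 ± 0.23 for CAMTA5 (SE, limma adjusted p = 0.732, 0.276 and 0.133). Their 95% intervals, of -0.35 to 0.50, -0.17 to 0.66 and -0.05 to 1.06, do not reach the estimate for CAMTA4, though that for CAMTA5 overlaps the interval of CAMTA4, 0.78 to 2.77. With the libraries at equal sums the difference was 0.85 for CAMTA2 and 1.32 for CAMTA5, where the median of all genes was 0.76, and CAMTA5 was then called (adjusted p = 0.0173). It was also called with quantile scaling, at 0.82 (adjusted p = 0.0311), where the median of all genes was 0.0089. So 1 of the 4 CAMTA genes was called as deposited, where 15.3% of all tested genes were, 7.53% as higher. Under either rescaling 2 were called, beside 14.1% of all tested genes at equal sums (9.52% higher) and 19.4% with quantile scaling (9.05% higher). The ratio of CAMTA4 to each other CAMTA gene was compared between the clones, a comparison chosen after the values were seen. The log2 ratio to CAMTA2 was higher in the strong clone by 2.13 and that to CAMTA3 by 1.94, with no overlap between the clones (exact permutation p = 0.1 for each, adjusted p = 0.15 over 3 pairs). For CAMTA5 the ratio differed by 1.70 (exact permutation p = 0.2, adjusted p = 0.2), because weak library 3, at 0.280, lay within the strong range of 0.263 to 0.294, while weak libraries 1 and 2 were at 0.0392 and 0.0601.

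**Figure D3:**
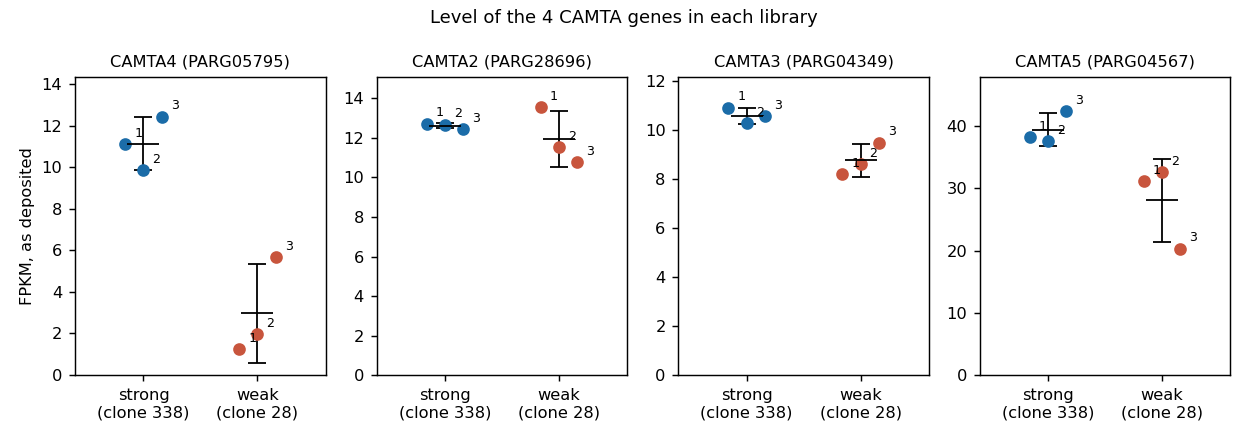
FPKM (y axis, as deposited, on a scale of its own in each panel) of the 4 CAMTA genes in the 3 libraries of each clone (points, numbered by library), with the mean and SD as bars. CAMTA4 runs from 11.1 ± 1.29 in the strong clone to 2.95 ± 2.39 FPKM in the weak clone, while CAMTA2, at 12.6 ± 0.14 and 11.9 ± 1.43 FPKM, overlaps between the clones.

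The CBF genes themselves, named DREB1 in the table, were low. Of 5 such genes 3 were tested, 1 was called as higher and 0 as lower in the strong clone. Over all tested genes 7.53% were called as higher and 7.78% as lower, and 3 genes are too few to compare with these shares. The called gene was DREB1D (PARG23731), with means of 5.53 ± 0.85 against 1.22 ± 1.15 FPKM (SD, n = 3) and a log2 difference of 1.67 ± 0.37 (SE, limma adjusted p = 0.0352). Under quantile scaling its adjusted p was 0.0712. Unlike the ICE1 genes and CAMTA4, it was lowest in weak library 3, at 0.408 FPKM, and highest of the weak libraries in weak library 2, at 2.54 FPKM. DREB1B (PARG23730) and DREB1A (PARG23732) differed by 0.62 ± 0.47 and -0.23 ± 0.47 (adjusted p = 0.316 and 0.706), and the sign of the latter turned at equal sums (0.26). A further DREB1D gene (PARG23729) was at 1.23 ± 0.54 against 0.290 ± 0.144 FPKM and below the filter, and PARG19427 had 0 reads in all 6 libraries.

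A list of genes whose products act on the ICE1 protein in Arabidopsis also took genes named like them and other kinases of cold signalling. Of its 21 genes 18 were tested. Of these 1 was called as higher and 0 as lower, or 5.56%, below the 15.3% of all tested genes. Their median log2 difference was 0.27, against 0.05 over all tested genes. The called gene was calcium/calmodulin-regulated receptor-like kinase 1 (PARG10517), a calcium-linked kinase of cold signalling, at 4.50 ± 0.87 against 1.99 ± 0.51 FPKM (0.88 ± 0.23, limma adjusted p = 0.0499). Its adjusted p was 0.0532 at equal sums and 0.0772 with quantile scaling. The kinase MPK3 (PARG00850) was at 103 ± 28.8 against 47.2 ± 18.1 FPKM and MPK4 (PARG23879) at 14.9 ± 2.82 against 8.07 ± 2.90 FPKM, with adjusted p values of 0.0621 and 0.0802. MPK3 was called at equal sums (1.96, adjusted p = 0.0177) and with quantile scaling (1.59, adjusted p = 0.0245). NTF6 (PARG00839), a kinase of the same class, stood the other way at 12.4 ± 1.39 against 27.3 ± 9.83 FPKM (adjusted p = 0.0635, or 0.0497 with quantile scaling). Its difference was -1.02 as deposited and -0.90 with quantile scaling, but -0.23 at equal sums (limma adjusted p = 0.429). The most abundant gene of the list, shaggy-related protein kinase theta (PARG18191), was at 316 ± 152 against 1022 ± 529 FPKM (adjusted p = 0.0936). HOS1 (PARG23421), which was chosen after its values were seen, was at 12.3, 10.02 and 13.4 FPKM in the strong libraries against 3.14, 3.90 and 14.2 FPKM in the weak ones. Weak library 3 exceeded all strong libraries here, and the gene was not called (adjusted p = 0.18).

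Among genes of the stomatal lineage, in which ICE1 also acts, 14 of 18 were tested and 0 were called in either direction. At an unadjusted p under 0.05 limma counted 7 as higher and 2 as lower, where it counted 22.5% and 23.3% of all tested genes. Limma voom on reads called 1 as higher and 0 as lower, where it called 5.61% and 7.81% of all tested genes. The list had a median of 0.93, with 12 of 14 differences above 0. Over all tested genes the median was 0.05 and 52.0% of differences were above 0. With quantile scaling the list had a median of 0.62 and 10 of 14 differences above 0, against 0.0089 and 50.4% of all tested genes. The receptor kinase gene ERECTA (PARG07501) was at 31.5, 19.6 and 31.5 FPKM in the strong libraries and at 2.11, 1.35 and 21.1 FPKM in the weak libraries. The peptide gene EPIDERMAL PATTERNING FACTOR-like 9 (PARG20569), named for a peptide that promotes stomata in Arabidopsis, was at 18.9, 12.6 and 21.0 against 0, 0.815 and 12.1 FPKM, and EPIDERMAL PATTERNING FACTOR-like 1 (PARG01865) at 22.0, 14.3 and 26.4 against 0.874, 0.334 and 10.5 FPKM. In these genes weak library 3 stood far above the other weak libraries, and for ERECTA it lay within the strong range (adjusted p = 0.0811, 0.077 and 0.0584 in the order named). Other listed genes differed little. TOO MANY MOUTHS (PARG15357) was at 5.75 ± 2.30 against 5.68 ± 3.01 FPKM, and EPIDERMAL PATTERNING FACTOR-like 2 (PARG07865) at 3.57 ± 0.71 against 2.91 ± 1.01 FPKM (limma adjusted p = 0.881 and 0.469). The genes described as FAMA (PARG03365) and SPEECHLESS (PARG19604), the factors with which ICE1 pairs in stomata, did not exceed 0.557 and 0.164 FPKM in any library and were not tested. YODA, the kinase that acts above these factors, is named in 7 genes that did not share a direction. PARG23849 and PARG09933 differed by 1.16 ± 0.38 and 0.99 ± 0.28, and PARG27080 and PARG26773 by -1.72 ± 0.57 and -0.89 ± 0.24 (adjusted p = 0.0714, 0.0565, 0.0733 and 0.053).

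Of the genes for other regulators of CBF genes, 18 of 21 were tested, with 3 called as higher and 4 as lower in the strong clone and a median of -0.38. That is 38.9%, where 15.3% of all tested genes were called. LHY, a morning factor of the circadian clock, which gates CBF expression through the day, was lower in both of its copies, at 42.5 ± 17.2 against 346 ± 172 FPKM for PARG18576 and 25.5 ± 12.7 against 245 ± 127 FPKM for PARG18577 (log2 differences -2.91 ± 0.52 and -3.15 ± 0.53, limma adjusted p = 0.0199 and 0.0169). REVEILLE 7 (PARG25317) and REVEILLE 8 (PARG02285), of the same MYB-like family, were also lower, at -1.95 ± 0.39 and -1.49 ± 0.36. GIGANTEA (PARG22490), an evening clock gene, was higher at 10.7 ± 1.07 against 2.51 ± 0.49 FPKM (1.75 ± 0.21, limma adjusted p = 0.00771). The other GIGANTEA gene (PARG22166), named after its values were seen, was at 18.8 ± 1.93 against 22.9 ± 6.21 FPKM and was not called (adjusted p = 0.437). REVEILLE 6 (PARG19534) and the light-signalling factor PIF1 (PARG20409) were higher by 1.23 ± 0.31 and 1.33 ± 0.34. REVEILLE 6, REVEILLE 8 and PIF1 are named as further called genes, after their values were seen. At equal sums these last 3 had adjusted p values of 0.0539, 0.0611 and 0.0522. The hour of collection is not given in the sources used here.

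Calmodulin and calmodulin-like genes, which encode the ligands of CAMTA proteins and their relatives, gave 1 higher and 2 lower of 10 tested (12 listed), with a median of -0.80 and 15.3% of all tested genes called. Calmodulin-like protein 2 (PARG13181) was without a read in all strong libraries and at 11.6, 16.2 and 4.68 FPKM in the weak ones, and these files cannot separate expression from a gene that is lost or altered in clone 338. Calmodulin-like protein 1 (PARG21246) was higher, at 5.63 ± 2.24 against 1.48 ± 0.25 FPKM (1.37 ± 0.30, limma adjusted p = 0.0329, or 0.0517 with quantile scaling), and a further calmodulin-like protein 2 gene (PARG07813) was lower (adjusted p = 0.0331, or 0.0784 at equal sums), at 0.465 ± 0.247 against 1.98 ± 0.41 FPKM. The most abundant gene of the list, PARG23401, also named for calmodulin-like protein 2, ran from 311 to 1923 FPKM in the strong and from 964 to 4765 FPKM in the weak libraries and was not called (adjusted p = 0.155).

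Of the salicylic acid immunity genes, a group that CAMTA proteins repress in Arabidopsis, 20 of 38 were tested, 5 were called as higher in the strong clone and 0 as lower, where 7.53% and 7.78% of all tested genes were called. The median of the list was 0.31. Both called genes described as WRKY70, a factor of the salicylic acid response, were far higher in the strong clone, PARG19170 at 41.2 ± 11.1 against 1.76 ± 0.39 FPKM and PARG29164 at 6.90 ± 2.51 FPKM, where weak libraries 1 and 2 had no read. Their limma adjusted p values were 0.00206 and 0.00384. EDS1L (PARG24710), a hub of immune signalling, was at 4.76 ± 0.69 against 1.124 ± 0.486 FPKM, calmodulin-binding protein 60 B (PARG02834) at 14.8 ± 8.17 against 1.92 ± 1.504, and NDR1 (PARG10474), a further called gene named after its value was seen, which acts below immune receptors, at 65.4 ± 26.1 against 14.5 ± 7.98. Their log2 differences were 1.46 ± 0.25, 2.43 ± 0.48 and 2.17 ± 0.46 (limma adjusted p = 0.0169, 0.026 and 0.0321). The most abundant gene of the list, pathogenesis-related protein 1 (PARG20973), stood the other way at 186 ± 90.9 against 714 ± 374 FPKM and was not called (adjusted p = 0.0713).

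Cold-regulated genes, whose relatives in Arabidopsis are CBF targets, were called in 1 of 10 tested cases (17 listed). That is 10%, where 15.3% of all tested genes were called. Their median was -0.73 as deposited, against 0.05 over all tested genes, and 0.079 at equal sums, against 0.76. The called gene was a dehydrin (PARG27271), a protein that shields cells from drying, at 122 ± 23.5 against 23.4 ± 7.23 FPKM (2.36 ± 0.28, limma adjusted p = 0.00771). The dehydrin gene with the highest level (PARG07069) stood at 692 ± 56.6 against 1929 ± 898 FPKM (adjusted p = 0.108), and its difference was -1.35 as deposited, -0.51 at equal sums and 0.12 with quantile scaling, so that its direction rests on the scaling.

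Over all lists, without the ICE1 genes and CAMTA4, 12 of 96 tested genes were called as higher and 6 as lower, that is 18.8%, near the 15.3% of all tested genes. Without weak library 3 the called genes, higher and lower, were 10 and 2 of 14 stomatal genes and 7 and 10 of 18 other CBF regulators. They were 6 and 6 of 18 genes that act on ICE1 or were taken into that list by name. For CBF genes they were 1 and 0 of 3, and for cold-regulated genes 2 and 7 of 10. The calmodulin list had 2 and 6 of 10, and the salicylic acid genes had 9 and 5 of 20. These shares stand beside 38% and 35.4% of all tested genes in that fit.

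**Figure D4:**
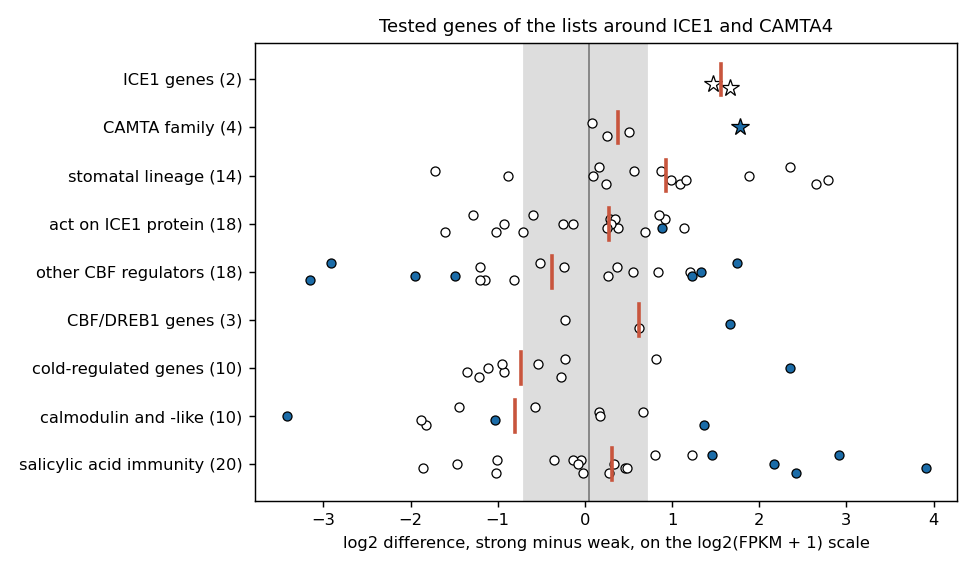
Log2 difference, strong minus weak, on the log2(FPKM + 1) scale (x axis) for each tested gene of 9 lists (y axis, number tested in brackets); filled points have a limma adjusted p under 0.05, stars are the 2 ICE1 genes and CAMTA4, red bars are list medians, and the grey line and band are the median and middle 50% of all tested genes. The 3 stars lie between 1.47 and 1.78, right of the band, and the list medians run from -0.80 for the calmodulin list to 1.56 for the ICE1 genes.

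The genes of the photosynthesis list, a marker of green flower parts, had a mean log2(FPKM + 1) of 6.09, 6.03 and 6.23 in the strong libraries and 4.20, 4.88 and 5.56 in the weak libraries over 40 tested genes, in the same order of groups as the ICE1 genes and CAMTA4, and 17 of the 40 were called as higher and 1 as lower, where 7.53% and 7.78% of all tested genes were. Its summed level was 5376 to 6517 FPKM in the strong and 2145 to 3561 FPKM in the weak libraries. The pollen list had means of 5.08, 5.47 and 4.76 over 27 tested genes in the strong clone, against 5.77, 5.59 and 5.14 in the weak clone, so the clones overlapped (exact permutation p = 0.2), with sums of 2584 to 5709 against 4901 to 16642 FPKM. Of these genes 1 was called as higher and 0 as lower, and the median difference was -0.60 as deposited but 0.23 at equal sums. Of its genes, 3 of 34 were at 0 in all libraries, and its most abundant gene, the homolog of the anther gene LAT52 (PARG10934), was at 1059 to 2618 FPKM in the strong and 2391 to 8917 FPKM in the weak libraries, with a difference of -1.79 as deposited and -0.17 with quantile scaling. The pistil list had 15 of 25 genes at 0 in all libraries. Over its 5 tested genes the means were 1.87, 2.22 and 1.40 in the strong clone, against 3.55, 3.23 and 2.56 in the weak clone. These did not overlap. The exact permutation p was 0.1 for this list and for the photosynthesis list, the smallest that 3 against 3 libraries allow. Sums of the pistil list did overlap, at 21.0 to 64.4 FPKM in the strong and 31.1 to 90.9 FPKM in the weak libraries. Of the 5 tested genes 0 were called as higher and 2 as lower. Its most abundant gene was a stigma-specific Stig1 gene (PARG12524). The part of these tissue markers in the differences of the ICE1 genes and CAMTA4 was not tested.

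**Figure D5:**
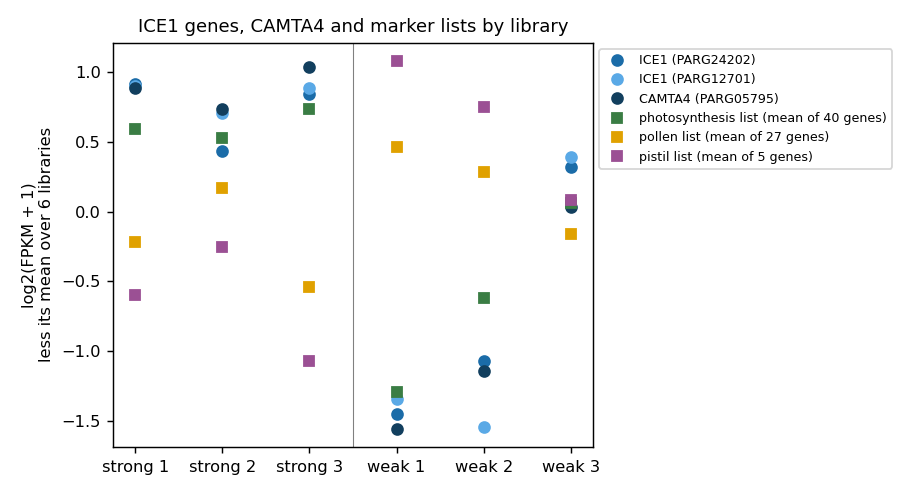
Log2(FPKM + 1) in each library (x axis) less its mean over the 6 libraries (y axis) for the 2 ICE1 genes, CAMTA4 and the mean of each marker list (squares). The ICE1 genes, CAMTA4 and the photosynthesis list are lowest in weak libraries 1 and 2, where the pollen and pistil lists are highest.

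The described genes most like PARG24202 over the 6 libraries, by the root mean square difference of log2 profiles centred on their own means, were beta-galactosidase 3 (PARG27291, 0.0405), UDP-glucose:glycoprotein glucosyltransferase (PARG09105, 0.0526), N-acetyl-alpha-D-glucosaminyl L-malate synthase (PARG15480, 0.0527) and histidine kinase 4 (PARG06901, 0.0619). For PARG12701 they were B2 protein (PARG29270, 0.0736), zinc-finger homeodomain protein 4 (PARG09248, 0.0848), the kinase-like protein TMKL1 (PARG20430, 0.0883) and an uncharacterized protein (PARG14837, 0.0886). CAMTA4 was most like the 30S ribosomal protein S6 alpha of the chloroplast (PARG24075, 0.0277), alpha-L-fucosidase 1 (PARG01030, 0.0594), the isomerase FKBP16-3 (PARG04705, 0.0733) and ABHD17C (PARG12845, 0.0800). Between the ICE1 genes the same measure was 0.231, and between PARG24202 and CAMTA4 it was 0.195, so the 3 genes were not among each other's nearest profiles. Ranked over the 16462 tested genes, PARG24202 was at rank 173 among those like CAMTA4, and PARG12701 was at rank 560 among those like PARG24202. The ranks of the other pairs lay between these. All genes compared share the same 6 libraries, so such likeness is a description.

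The neighbours of the 3 genes on their linkage groups had the following levels. PARG24202 is followed, after 1148 bases, by an auxin response factor 2 gene (PARG24203) on the other strand, at 52.0 ± 2.58 FPKM in the strong and 71.1 ± 12.4 FPKM in the weak clone, and is preceded by a ClpC chaperone gene (PARG24201), at 13.1 ± 3.54 against 27.5 ± 12.7 FPKM. Beside PARG12701 lie an aspartokinase 3 gene (PARG12700), at 27.1 ± 4.83 against 25.7 ± 6.07 FPKM, and a short-chain dehydrogenase reductase 2a gene (PARG12702). The latter was not tested, at 0.520, 0.783 and 0.440 FPKM in the strong libraries and 0.381, 0.208 and 0.0813 FPKM in the weak libraries. It had 7, 4 and 3 reads in weak libraries 1, 2 and 3. Its values did not overlap between the clones, as was so for 45.4% of all tested genes, 23.3% with the strong clone above. A gene without description (PARG05794) lies 442 bases from CAMTA4, at 4.06 ± 0.65 against 5.56 ± 2.60 FPKM, and the next gene on the other side (PARG05796) had 0 reads. Of these neighbours 4 were tested and none was called by limma. The adjusted p was 0.146 for PARG24203, 0.115 for PARG24201, 0.785 for PARG12700 and 0.532 for PARG05794, and each unadjusted p was above 0.05. Without weak library 3 PARG24201, PARG24203 and PARG05794 were called as lower by limma (adjusted p = 0.00305, 0.00985 and 0.0101), opposite to the ICE1 genes and CAMTA4. That fit called 73.4% of all tested genes, 35.4% as lower, so such calls are common in it. At equal sums the differences of PARG24203 and PARG05794 were positive (0.39 and 0.42) and not called. No annotated gene overlapped any of the 3 genes.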

How the data were processed

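The authors deposited FPKM values of 31889 genes in 6 libraries, together with the place, length and protein description of each gene. CASAVA, RSEM and Bowtie2 are the tools named, without versions, per the submitters' processing notes. The genome build is not given in the sources used here, and positions are as deposited. Gene names rest on similarity to proteins of other species, and reads of related genes may have been split between them. Columns were matched to samples by name, with 0 left unmapped. For 100% of positive values FPKM times length was a whole number of reads, to within 0.01. The library size behind the deposited FPKM exceeded the reads by 1.18 to 1.42 times for the strong clone and was 0.618, 0.663 and 1.21 times the reads for weak libraries 1, 2 and 3. Libraries of a clone differed from each other by more than sampling noise.

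The test used limma 3.58.1 in R 4.3.3 (lmFit, eBayes with trend, two-sided) on log2(FPKM + 1) for 16462 genes that reached 1 FPKM in 3 or more libraries, with Benjamini-Hochberg adjustment over all of them and a threshold of 0.05. This scale understates changes of low genes. The test was checked on simulated data with independent noise, smaller than the observed SD, and with no library set apart. That check does not cover a library like weak library 3. Ratios of 2 genes were compared by exact permutation. Alternatives covered pseudocount, filter, scaling, variance trend, replicate block, left-out libraries and limma voom on recovered reads. Lists came from word patterns in gene descriptions. Named genes are the 3 genes, members of the CAMTA, stomatal and CBF lists, up to 4 genes with the smallest adjusted p and the most abundant gene of each other list, the most abundant marker genes, and the 4 most similar described genes, of which not all are printed; exceptions are stated. The 3 genes and the lists were chosen with earlier results of these data known.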

Additional observations from a re-analysis of the deposited data

How the results depend on the processing

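The planned count tests on reads were not run, because the deposited values are FPKM, and limma voom on the recovered reads, chosen after seeing the data, stands in their place. The positive differences of the ICE1 genes and CAMTA4 kept their sign under every alternative run. Calls did not. CAMTA4 had an adjusted p of 0.0528 with a pseudocount of 0.1 (difference 2.16), of 0.0517 with no filter on low values (1.78) and of 0.0531 with at least 1 FPKM required in all 6 libraries (1.78), a filter that PARG12701 does not pass. It kept its call with a pseudocount of 0.5, equal sums, quantile scaling, no trend and limma voom (adjusted p of 0.0242 to 0.0469), and PARG24202 and PARG12701 stayed above the threshold in all of these. Leaving out 1 library in turn gave 1.11 to 1.99 for PARG24202, 1.31 to 2.28 for PARG12701 and 1.44 to 2.24 for CAMTA4. The fit with equal sums and without weak replicate 3, chosen after seeing the data, called all 3 genes, at 3.01, 3.05 and 3.08.

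Whether the replicate numbers pair the libraries was not settled. Same-numbered libraries had correlations of -0.236, 0.588 and 0.605 of their deviations from the clone means, and differently numbered ones ran from -0.675 to 0.619. Deviations from a mean of 3 libraries depend on each other, so these correlations cannot decide it. With the number as a replicate block PARG24202 (1.47, adjusted p = 0.024) and PARG12701 (1.66, adjusted p = 0.0217) were called, as were 6439 genes in all, 2997 higher and 3442 lower, and 50 genes of the lists.

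Over all genes the count of 2520 (1239 higher, 1281 lower) became 780 (344 and 436) with 1 FPKM required in all libraries and 12816 (10568 and 2248) with equal sums and without weak replicate 3. A pseudocount of 0.1 gave 796 higher genes. Equal sums gave 747 lower genes, with 67.7% of calls higher against 49.2% as deposited. Leaving out 1 library in turn gave 166 to 12075 genes, 90 to 6248 of them higher and 76 to 5827 lower; without weak library 1 or 2 there were 610 and 395, and without strong library 1, 2 or 3 there were 166, 353 and 230. The 19 called genes of the lists became 9, 76 and 3 to 76 in the same 3 cases. The ratio of PARG12701 to CAMTA4 turned sign with FPKM + 1 (-0.12) and when 1 library was left out (-0.38 to 0.25). Of the 70 other named genes that were tested, the 10 that turned sign were not called as deposited. At equal sums, and at equal sums without weak replicate 3, the values were 0.26 and 0.72 for PARG23732, 0.56 and 0.67 for PARG22166, 0.54 and 0.25 for PARG12524, 0.39 and 0.58 for PARG24203, and 0.42 and 0.30 for PARG05794. With quantile scaling they were -0.075 for PARG15357, -0.073 for PARG07865, 0.12 for PARG07069 and 0.064 for PARG12524. Leaving out 1 library in turn gave -0.0172 to 0.491 for PARG19497, -0.366 to 0.362 for PARG15357, -0.747 to 0.0399 for PARG23732, -0.892 to 0.099 for PARG12524 and -0.0753 to 0.253 for PARG12700. Depth limits the ICE1 genes most in weak libraries 1 and 2, where PARG12701 has 29 and 23 reads.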
